A study of Arabidopsis thaliana with 6 samples.

Results

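Cyclin-dependent kinases (CDKs) drive the plant cell cycle when they are bound by cyclins, and 2 families of small proteins hold them in check. The SIAMESE-RELATED (SMR) proteins, named after *SIAMESE* (*SIM*), and the KIP-RELATED PROTEINS (KRP) bind CDK and cyclin complexes and inhibit them, and in leaves and trichomes they are known to favour the switch from division to endoreduplication. Several *SMR* genes respond to DNA damage under the control of the factor SOG1, as does *CYCB1;1*, a B-type cyclin gene that accumulates in G2 and takes part in repair by homologous recombination. Described here are the inhibitor genes *SMR4* (AT5G02220, probe set 251035_at), *SMR5* (AT1G07500, 261065_at), *SMR3* (AT5G02420, 251019_at) and *KRP4* (AT2G32710, 267557_at), together with *CYCB1;1* (AT4G37490, 253051_at). They were chosen by locus with earlier results of these data known, so that their separation between the genotypes is a description. Each has 1 probe set of the 22746 tested on the Affymetrix ATH1 array, and all 5 were measured on every array.

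The *gis5* mutant carries an EMS-induced point mutation in *POLD1*, which encodes the catalytic subunit of polymerase δ of the replication machinery, and had been backcrossed to WT (Columbia). It is a single, thermosensitive allele, which was first isolated as an early flowering suppressor of *gi-2*. Both groups were 10-d-old whole seedlings under continuous light, grown at 1 shared temperature, the warmer of the pair that the study set against each other in its expression assays. There were 3 biological replicates of *gis5* and 3 of WT, 1 array each. The comparison of *gis5* with WT asks how transcript levels differ when polymerase δ carries this mutation.

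Values are linear MAS5 signals without detection calls, so that a dim signal cannot be told from none, and a signal cannot be compared between probe sets. The median signal was between 185 and 191 on the *gis5* arrays and between 174 and 182 on the WT arrays, and it was left unscaled. The actin control probe sets, which track RNA quality, gave a 3′ over 5′ ratio between 4.39 and 4.99 in *gis5* and between 3.30 and 6.42 in WT. The 3′ signal thus exceeded the 5′ signal on every array, and the ratio varied more among the WT arrays. The part of RNA quality in the differences was not tested. Arrays correlated with each other at 0.958 to 0.974 on the log2 scale. Log2 ratios are differences of the means of log2(signal + 16), *gis5* minus WT, and tests are those of limma over all 22746 probe sets with Benjamini-Hochberg adjustment. RNA came from whole seedlings, so that a different number of cells expressing a gene and a different level per cell cannot be told apart. Precision is limited by the number of arrays. For a single gene, 3 arrays against 3 allow no exact permutation p below 0.1.

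The 3 *SMR* genes and *CYCB1;1* had higher signals on every *gis5* array than on any WT array, and *KRP4* had lower signals on every *gis5* array than on any WT array. Of the 5 genes, *SMR3* was the only one named by the annotation of the array. The other 4 were named only through the study's supplementary list. The study ordered its genes by the effect of *gis5*, and the list was read in its leading rows. Counts that involve these 4 are therefore to be read against the genes of that list, not all of which had an unadjusted p under 0.05 here. Arrays of the genotypes lay apart in this way for 38.2% of the genes named only through the list in the higher direction and for 18.4% in the lower direction, beside 9.13% and 6.79% of all probe sets. Mean signals in *gis5* over those in WT were 5.21 for *SMR4*, 3.50 for *SMR5*, 2.05 for the cyclin gene, 1.74 for *SMR3* and 0.616 for *KRP4*. None of the 5 genes had an adjusted p under 0.05 in limma, against 0.0044% of all probe sets that did. All 5 had an unadjusted p under 0.05, as had 30.8% of the genes named only through the list in the higher and 14.0% in the lower direction, beside 5.99% and 3.06% of all probe sets.

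*SMR4*, an inhibitor gene induced by DNA damage, had the largest difference of the 5. Its signal was 332, 260.4 and 293 on the *gis5* arrays, against 40.7, 64.8 and 64.5 on the WT arrays. The lowest *gis5* array was thus 4.02 times the highest WT array, and the relative spread was wider in WT (coefficient of variation of 24.4%) than in *gis5* (12.2%). The signal averaged 295 ± 35.9 in *gis5* and 56.7 ± 13.8 in WT (SD, n = 3 each). The log2 ratio was 2.11 (standard error 0.20, 95% interval 1.63 to 2.59), at rank 17 from the top of all tested probe sets. Its adjusted p from limma was 0.0565 (unadjusted p = 2.035e-05). This met the thresholds of the methods, a p under 0.05 together with a change of at least 1 on the log2 scale. The methods do not say whether that p was adjusted, and the unadjusted p was used here. The study applied them after RMA normalization, and here they were applied to MAS5 signals. In the higher direction 7.99% of the genes named only through the supplementary list and 1.38% of all probe sets met them.

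*SMR5*, which responds to DNA damage and to reactive oxygen species, was next. Its signal was 335, 354 and 386 on the *gis5* arrays, against 131, 76.0 and 100.4 on the WT arrays. The *gis5* arrays were close to each other, with a coefficient of variation of 7.13%, against 26.8% in WT, and the lowest *gis5* array was 2.57 times the highest WT array. The signal averaged 358 ± 25.6 in *gis5* and 102 ± 27.4 in WT (SD, n = 3 each). The log2 ratio was 1.69 (standard error 0.21, 95% interval 1.20 to 2.18), at rank 37, with an adjusted p of 0.0906 and an unadjusted p of 9.63e-05 from limma, which met the thresholds of the methods as well.

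*SMR3*, a member of the same family, showed a smaller difference. Its signal was 368, 266 and 333 on the *gis5* arrays, against 205, 168 and 181 on the WT arrays. The gap between the genotypes was narrow, with the lowest *gis5* array at 1.296 times the highest WT array. The signal averaged 322 ± 51.6 in *gis5* and 185 ± 19.0 in WT (SD, n = 3 each). The log2 ratio of 0.75 (standard error 0.18, 95% interval 0.32 to 1.17) ranked at 961, had an adjusted p of 0.29 from limma and stayed below 2-fold.

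*KRP4*, the one gene of the KRP family measured here, had the only lower mean signal in *gis5* of the 5. Its signal was 297, 329 and 282 on the *gis5* arrays, against 551, 383 and 540.0 on the WT arrays. WT replicate 2 was well below the other WT arrays, and the highest *gis5* array was 0.858 times this lowest WT array. The signal averaged 303 ± 23.9 in *gis5* and 491 ± 93.7 in WT (SD, n = 3 each). The log2 ratio was −0.66 (standard error 0.19, 95% interval −1.11 to −0.20), at rank 655 from the bottom of all tested probe sets. Its adjusted p from limma was 0.40 (unadjusted p = 0.01136). Without WT replicate 2 it was −0.82, and without any other single array it lay between −0.71 and −0.57.

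*CYCB1;1* has a promoter that is a common reporter of cells in G2. In a separate assay of the study, this reporter stained more cells in *gis5* roots, only at the warmer temperature. The signal of *CYCB1;1* was 363, 263 and 280 on the *gis5* arrays, against 159, 123 and 159 on the WT arrays. The highest value was on *gis5* replicate 1, and the lowest *gis5* array was 1.65 times the highest WT array. The signal averaged 302 ± 53.6 in *gis5* and 147 ± 21.0 in WT (SD, n = 3 each). The log2 ratio was 0.96 (standard error 0.19, 95% interval 0.51 to 1.41), at rank 428, with an adjusted p of 0.21 and an unadjusted p of 0.00169 from limma. It lay just below the threshold of 1 of the methods and passed it in 5 of the 13 alternatives, with values between 0.79 and 1.05 over all 13.

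**Figure D1:**
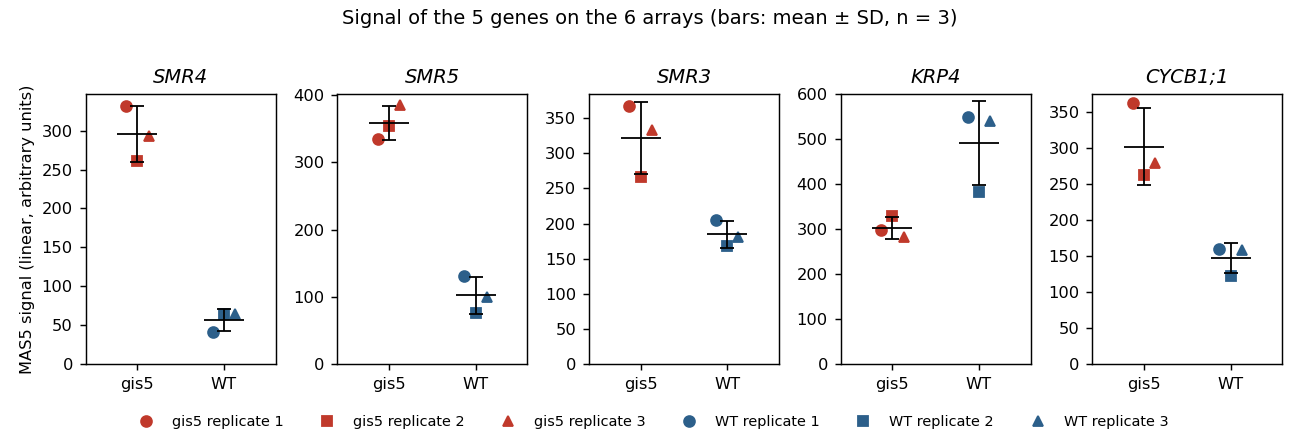
MAS5 signal (linear axis from 0) of the 5 genes on the *gis5* arrays (red) and the WT arrays (blue), with marker shapes for the replicate number and bars for the mean ± SD (n = 3). *SMR4*, *SMR5*, *SMR3* and *CYCB1;1* are higher on every *gis5* array than on any WT array, and *KRP4* is lower.

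Mean signals over the 6 arrays were 176 for *SMR4*, 225 for the cyclin gene, 230 for *SMR5*, 253 for *SMR3* and 397 for *KRP4*, and between 48.9% and 67.5% of all probe sets were dimmer. Only *SMR4* lay below the median of all probe sets, which was 185.5. In WT alone the means of *SMR4* (56.7), *SMR5* (102), the cyclin gene (147) and *SMR3* (185) were all below that median, so that the ratios of *SMR4* and *SMR5* in particular rest on a dim WT signal. In a test of only the 11373 probe sets brighter than the median over all arrays, *SMR5*, *SMR3* and the cyclin gene took part only through their *gis5* signal, and their adjusted p there is not used. *KRP4*, brighter than the median in both genotypes, had an adjusted p of 0.0972 from limma in that test, and *SMR4* was not part of it. With a trended and robust variance, *SMR4* had an adjusted p of 0.000135, *SMR5* of 0.00051 and the cyclin gene of 0.0372. The adjusted p of these genes thus changed with the variance model, and the sign of each log2 ratio was the same in every alternative tried.

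**Figure D2:**
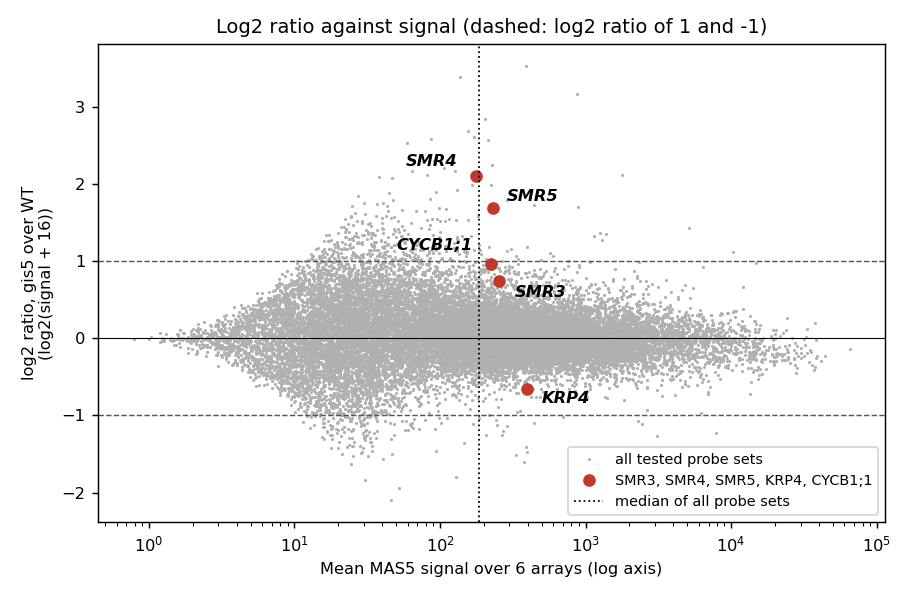
Log2 ratio (*gis5* over WT, on log2(signal + 16)) of all 22746 probe sets against their mean signal over the 6 arrays (log axis). *SMR4* at 2.11 and *SMR5* at 1.69 stand above the dashed line at 1, *CYCB1;1* at 0.96 and *SMR3* at 0.75 lie below it, and *KRP4* is at −0.66.

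The sizes of the differences were compared between the genes within each array, as the difference of their log2(signal + 16), for 10 pairs. The log2 ratio of *SMR4* exceeded that of *SMR5* by 0.43, with overlapping arrays. The within-array difference of *SMR4* minus *SMR5* was −0.01, −0.42 and −0.38 on the *gis5* arrays, against −1.37, −0.19 and −0.53 on the WT arrays (exact permutation p = 0.4, two-sided). Likewise *SMR3* minus the cyclin gene was 0.02, 0.02 and 0.24 on the *gis5* arrays, against 0.33, 0.41 and 0.17 on the WT arrays, a difference of log2 ratios of −0.21 (exact permutation p = 0.2). In the other 8 pairs the *gis5* arrays lay apart from the WT arrays, with the smallest p that the design allows (exact permutation p = 0.1, 0.125 adjusted over the 10 pairs). Among these 8, *SMR5* exceeded the cyclin gene by 0.73 and *SMR3* by 0.94, and *SMR4* exceeded *SMR3* by 1.37 and *KRP4* by 2.77. No pair can pass a threshold of 0.05 in this design, so that the order of the log2 ratios of the 5 genes is a description and was not settled by these tests.

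Within the genotypes the genes did not share one order of arrays. *SMR4*, *SMR3* and the cyclin gene were highest on *gis5* replicate 1 and lowest on *gis5* replicate 2, *SMR5* was highest on *gis5* replicate 3, and *KRP4* on *gis5* replicate 2. In WT, *SMR4* was lowest on WT replicate 1, where *SMR5*, *SMR3*, *KRP4* and the cyclin gene were highest.

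In the list of 21 *SMR*, *SIM* and *KRP* genes, 12 had a named probe set and 9 were not analysed here, *SMR7*, *SMR1* and the other 6 *KRP* genes among them. The 8 measured inhibitor genes besides *SMR3*, *SMR4*, *SMR5* and *KRP4* had log2 ratios between −0.37 and 0.30 with a median of −0.01, beside a median of 0.03 over all probe sets. None of these 8 had an unadjusted p under 0.05, against 5.73% in the higher and 2.94% in the lower direction over all genes named by the annotation of the array (adjusted p of 0.69 or more in limma for each of the 8), and the arrays of the genotypes overlapped in all 8. Over the whole list, 3 of 12 genes had an unadjusted p under 0.05 in the higher and 1 of 12 in the lower direction. These 4 are the inhibitor genes described here, chosen with earlier results of these data known, so that their contrast with the other 8 is a description. All but *SMR3* were named only through the supplementary list, in whose genes the shares were 30.8% higher and 14.0% lower. The other 8 were named by the annotation of the array and not through the supplementary list.

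*SIM*, the founding member of the family and a regulator of trichome endoreduplication, had a signal of 472, 613 and 653 on the *gis5* arrays, against 566, 609 and 537 on the WT arrays, at a log2 ratio of 0.01 with a standard error of 0.18 (adjusted p = 0.99 from limma). The genotypes overlapped widely in *SIM*. The other 7, given by locus because the annotation tables used here give them no symbol, were AT5G40460 at 0.30, AT5G59360 at 0.18, AT2G28330 at 0.10, AT1G08180 at −0.03, AT1G10690 at −0.10, AT2G28870 at −0.22 and AT2G37610 at −0.37. The last of these was dim, with a signal of 20.9, 26.6 and 3.65 on the *gis5* arrays, against 3.51, 47.2 and 37.7 on the WT arrays, so that its ratio has a large standard error (0.51).

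Cyclins are the partners that the inhibitors act on, and 7 of 30 listed cyclin genes had a named probe set. All 7 were named only through the supplementary list, in whose genes 30.8% had an unadjusted p under 0.05 in the higher direction. Among the 7 cyclin genes these were 5 (71.4%), with none in the lower direction, and the median log2 ratio was 0.61, beside 0.35 over all genes named only through that list. None passed an adjusted p of 0.05. Without *gis5* replicate 1 the count was 3, as it was without WT replicate 1 or without WT replicate 2.

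Besides *CYCB1;1*, the cyclin genes with the smallest p were *CYCA3;1*, *CYCB1;3* and *CYCB1;4*. The first of these, an A-type cyclin gene of a group expressed around S phase, had a signal of 226, 218 and 225 on the *gis5* arrays, against 135, 142 and 122 on the WT arrays. Its log2 ratio of 0.68 had a standard error of 0.14 and an adjusted p of 0.23 in limma, and replicates of each genotype were close to each other. The second, of the B1 type, had a signal of 296, 205 and 193 on the *gis5* arrays, against 152, 140.5 and 118 on the WT arrays, and its log2 ratio of 0.68 had a standard error of 0.21 and an adjusted p of 0.43 in limma. The third, also of the B1 type, had a signal of 390.4, 267 and 282 on the *gis5* arrays, against 183, 174 and 238 on the WT arrays, and its log2 ratio of 0.61 had a standard error of 0.21 and an adjusted p of 0.47 in limma. Both B1-type genes were highest on *gis5* replicate 1, and their other *gis5* arrays lay closer to the WT arrays.

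Of 12 CDK genes and partners 4 were measured, again only through the supplementary list, and all 4 were higher on all *gis5* arrays than on any WT array, as were 38.2% of the genes named only through that list. Only *CKS2*, for a small CDK-binding subunit, had an unadjusted p under 0.05 (25.0% of the 4, against 30.8% for that list), with a log2 ratio of 0.66 (adjusted p = 0.38 in limma) from a signal of 1573, 1081 and 1232 on the *gis5* arrays, against 836, 766 and 813 on the WT arrays. *WEE1*, for a kinase that inhibits CDKs upon replication stress, had 0.63 (standard error 0.27), and both measured genes of the mitotic CDKB2 kinases had 0.39 and 0.37.

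*gis5* replicate 1 stood out in these lists. Of the 7 cyclin genes, 6 were highest in *gis5* on replicate 1, and the summed signal of the 7 was 2176 there, against 1597 on *gis5* replicate 2, 1630 on *gis5* replicate 3 and between 1113 and 1161 on the WT arrays. The 4 CDK genes and partners summed to 2643, 1974 and 2151 on the *gis5* arrays and to between 1396 and 1589 on the WT arrays. All 3 *gis5* sums were above the WT sums in both lists. Without *gis5* replicate 1 the log2 ratio of *CYCB1;1* was 0.83, that of *SMR3* 0.65 and that of *SMR4* 2.03.

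**Figure D3:**
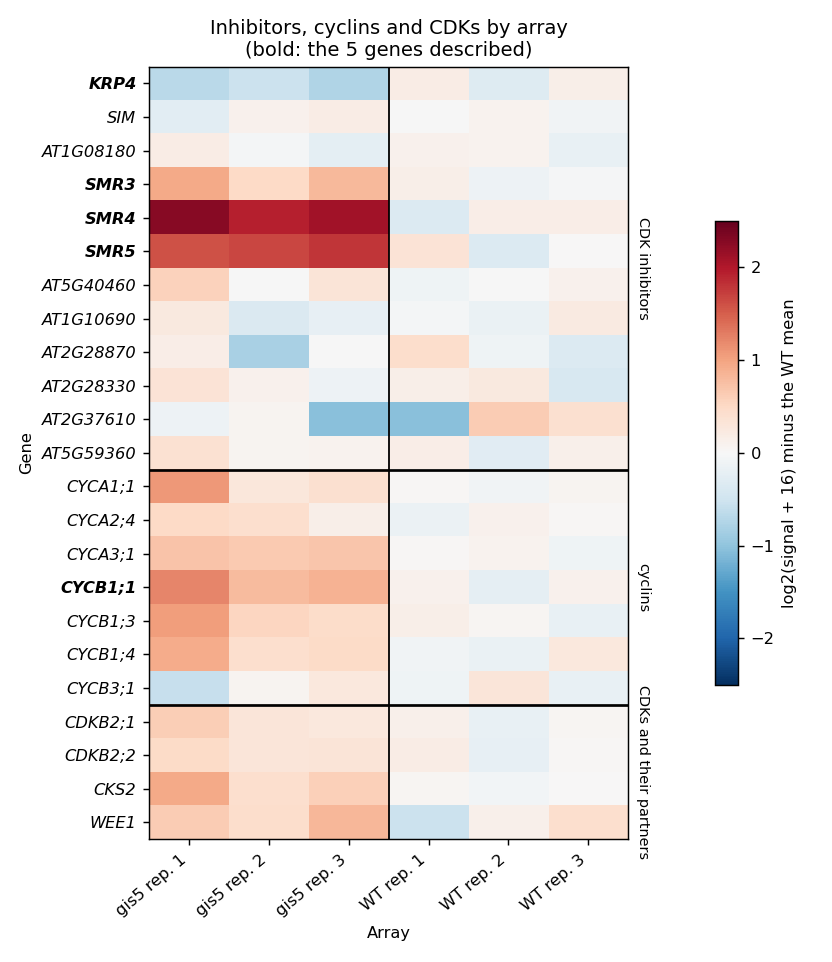
Log2(signal + 16) minus the WT mean for the measured CDK inhibitor genes, cyclin genes, and CDK genes and partners (rows) on the 6 arrays (columns, *gis5* left), with red for higher and blue for lower values. *SMR4*, *SMR5*, *SMR3* and 6 of the 7 cyclin genes are red on the *gis5* arrays, *KRP4* is blue, and the other inhibitor genes show no common direction.

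Genes of other steps of the cell cycle were described by the same counts. Of 16 listed genes of mitosis 6 were measured, 4 of them named by the annotation of the array, and none had an unadjusted p under 0.05 (against 5.99% of all probe sets in the higher and 3.06% in the lower direction). The spindle checkpoint gene *BUBR1* had a log2 ratio of 0.56 (standard error 0.25) and the Aurora kinase gene *AUR1* one of 0.38 (standard error 0.17), and in both genes the *gis5* arrays lay above the WT arrays. *MAD2* had 0.42 and *AUR3* 0.42, with overlapping arrays. The other 2, named after their values were seen, were the Aurora kinase gene *AUR2* at −0.22 (standard error 0.16), with every *gis5* array below every WT array, and *MYB3R4* at 1.04 with a standard error of 0.59 and overlapping arrays. Of 17 genes of the endocycle and of E2F-RBR control, 5 were measured and 1 had an unadjusted p under 0.05 in the higher direction (beside 5.99% of all probe sets and 30.8% for the supplementary list, through which it was named). This was *DEL3*, for an atypical E2F factor, at 0.75 (adjusted p = 0.29 from limma, standard error 0.18). *E2FC* had 0.40, *SKP2A* −0.17 and *DPB* −0.21.

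Of 13 genes of DNA replication, 5 were measured and 4 had an unadjusted p under 0.05 in the higher direction (80.0%, against 30.8% for the supplementary list). They were the ribonucleotide reductase genes *TSO2* at 1.44 and *RNR1* at 0.95, *MCM4*, for a subunit of the replicative helicase, at 0.53 and *PCNA1*, for the sliding clamp, at 0.45, all 4 named through the supplementary list. Of 26 genes of the DNA damage response, a list that holds none of the 5 genes, 14 were measured and 11 had an unadjusted p under 0.05 in the higher direction (78.6%, against the 30.8% given above for the supplementary list), with a median log2 ratio of 1.03. Those with the smallest p were the X-ray induced gene *XRI1* at 1.73, the recombination gene *GMI1* at 1.93, the thymidine kinase gene *TK1A* at 2.12 and the poly(ADP-ribose) polymerase gene *PARP2* at 1.99, each with its *gis5* arrays above its WT arrays. *SMR4* and *SMR5* had ratios in the range of these 4, picked by their p, or close to it. *CYCB1;1* and *SMR3* lay below these 4 but within the range of all 14 (−0.21 to 2.12), and *KRP4* lay below that range. Of the 14, 10 were named through the supplementary list, and 1 of the 4 others, *MND1*, had an unadjusted p under 0.05, at a log2 ratio of 1.095. For these 4 the share to compare is the 5.73% higher of all genes named by the annotation of the array. Both lists were chosen with earlier results of these data known, so that their counts are a description.

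*SMR4* and *SMR3* lie on chromosome 5 with 18 protein-coding genes between them in the gene order of TAIR10.1. Of these, 8 were measured, with log2 ratios between −0.13 and 0.34 and none with an unadjusted p under 0.05 in either direction. The immediate neighbours of *SMR4*, AT5G02210 and AT5G02230, had log2 ratios of −0.39 from a very dim signal (mean of 3.90 in *gis5* and 10.9 in WT) and of 0.25, and that of *SMR3*, AT5G02430, had 0.02. Over the 10 genes on either side of each of the 5 genes, between 5 and 13 were measured, with medians between −0.09 and 0.19. Most of these had an unadjusted p of 0.05 or more, with 1 of 13 higher and 1 of 13 lower around *SMR4*, 1 of 9 higher around *SMR3* and 3 of 11 higher around *SMR5* as the exceptions, against 5.73% higher and 2.94% lower of all genes named by the annotation of the array.

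For each of the 5 genes, the 3 named genes above the median signal with the most similar pattern over the 6 arrays were found by Pearson's r on log2(signal + 16), among 6502 or 6503 candidates. The points fall into the 2 genotypes, so that r mostly follows the difference between these, and it is given as a description with no p. *SMR4* was most similar to *BARD1* (r = 0.997), a partner of *BRCA1*, to *RNR1* (r = 0.996) and to AT3G13610 (r = 0.995). *BARD1* was above the median signal only through *gis5* (mean of 324 in *gis5* and 157.5 in WT), so nothing rests on its place. *SMR5* was most similar to *SGP1* (r = 0.994), AT2G41410 (r = 0.994) and AT1G14960 (r = 0.991), and *SMR3* to *EULS3*, *LSM6A* and *ANNAT2* (r between 0.991 and 0.993). *KRP4* was most similar to *CCL* (r = 0.995), AT1G52100 (r = 0.989) and AT4G05460 (r = 0.988), and *CYCB1;1* to AT4G27280 (r = 0.997), *JAL22* (r = 0.992) and AT1G14120 (r = 0.989). Between 47 and 74 candidates had an r above 0.95 with each gene, so that these are the nearest of many.

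Some genes listed as markers of other tissues differed between the arrays beside these genes. The summed signal of 3 measured seed genes of 8 was 168, 1210 and 662 on the *gis5* arrays, against 178, 209 and 175 on the WT arrays, and the cruciferin gene *CRA1* was at 2.29 on *gis5* replicate 1, near the lowest the arrays give. That array also had the highest signals of *SMR4*, *SMR3* and the B-type cyclin gene. The summed signal of 5 measured floral genes of 7 was 1434, 1562 and 1100 on the *gis5* arrays, against 176, 239 and 196 on the WT arrays. These 5 were *SEP3* at a log2 ratio of 3.535, *SEP1* at 3.389, *SEP2* at 2.534, *AG* at 0.91 and *PI* at 0.58. The study reports ectopic expression of *SEP3* in *gis5*, so that this sum cannot be read as an amount of floral tissue. The 4 measured root markers of 7 had a median log2 ratio of 0.67, near the 0.75 of *SMR3*, with overlapping arrays in each. They were *EXPA7* at 0.79, *PRP3* at 0.73, *EXPA18* at 0.60 and *PYK10* at 0.11, and only *PRP3* had an unadjusted p under 0.05 (adjusted p = 0.52 from limma). Their sum, nearly all of it *PYK10*, was between 20130 and 23880 in *gis5* and between 15900 and 22710 in WT. The leaf marker *RCA* was at 38350, 35310 and 34520 on the *gis5* arrays, against 43820, 39850 and 43070 on the WT arrays. Of the markers of shoot meristems, where cells divide, only *CLV3* was measured, at 16.7 or less on every array, and of the trichome markers only *TRY*, with overlapping genotypes (log2 ratio −0.07). The part of these tissues in the differences of the 5 genes was not tested.

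**Figure D4:**
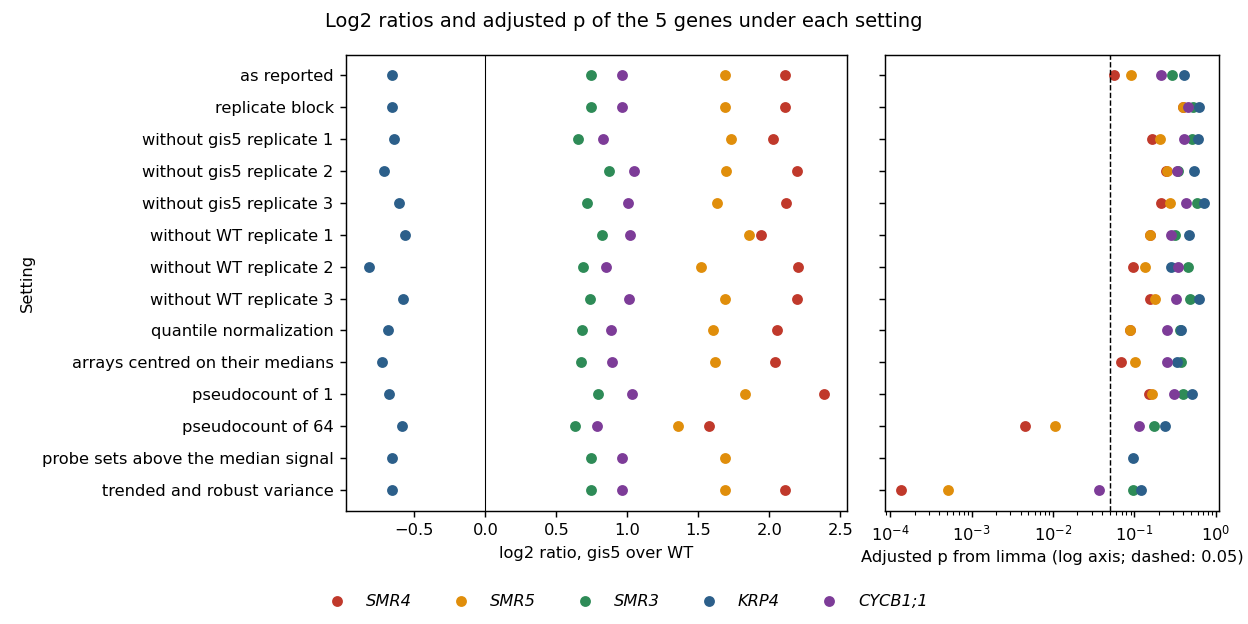
Log2 ratio (left) and adjusted p from limma (right, log axis, dashed line at 0.05) of the 5 genes as reported and under each of the 13 alternatives. Every log2 ratio keeps its sign, and *SMR4* and *SMR5* reach an adjusted p under 0.05 in 2 alternatives each, *CYCB1;1* in 1 and *SMR3* and *KRP4* in none of those shown. For the test above the median signal the right side shows *KRP4* alone, since *SMR4* is not part of it and the other 3 pass its filter only through *gis5*.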

How the data were processed

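The authors deposited linear signal intensities, 1 value per probe set and array, for which the processing notes name MAS5. The values show that each array was scaled to a mean of about 500 after trimming 2% at either end. Detection calls and raw array files were not used here. The 64 control probe sets were left out, and log2(signal + 16) was fitted with limma 3.58.1 in R 4.3.3 with a genotype term alone, and p-values of the 22746 probe sets were adjusted by Benjamini-Hochberg. The fit was tested on simulated data. The test behind the p of the study's methods is not named there, nor whether that p was adjusted. The thresholds were applied here to limma's unadjusted p. The study normalized its arrays with RMA, while the signals used here are MAS5. Calls and counts at these thresholds are therefore not the study's own.

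Probe sets were named through the array annotation and the RefSeq gene table of TAIR10.1 (13436 probe sets) or only through the supplementary list (851). The sources used here name no genome build for the arrays, so coordinates are left out, and no sequences are printed. A gene with several probe sets was taken by the brightest. By rule, the 5 genes, all measured CDK inhibitor genes, up to 4 genes of each other list with the smallest p and the 3 most similar genes are named, and other genes named as neighbours, markers or mitosis genes were added. The members and lists were chosen with earlier results of these data known. Alternatives were the replicate block, leaving out each array, quantile normalization, median centring, pseudocounts of 1 and 64, a filter on dim probe sets and a trended, robust variance.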

Additional observations from a re-analysis of the deposited data

How the results depend on the processing

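The log2 ratios of all 5 genes kept their sign in every alternative, and their unadjusted p stayed under 0.05 in each. The adjusted p passed 0.05 with a pseudocount of 64 for *SMR4* (log2 ratio 1.58) and *SMR5* (1.36), with a trended and robust variance for *SMR4* (2.11), *SMR5* (1.69) and *CYCB1;1* (0.96), and above the median signal for *SMR5* (1.69), *SMR3* (0.75) and *CYCB1;1* (0.96). The last 3 pass that filter only through their *gis5* signal, so nothing rests on them, and it left out *SMR4*. The cause was not tested.

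With the replicate number as a block, the adjusted p was between 0.39 and 0.63 for the 5 genes, no probe set passed an adjusted p of 0.05, and 323 higher and 126 lower met the thresholds of the methods. The sample titles do not say whether same-numbered arrays were paired. The correlations of their deviations from the group means were −0.06, −0.00028 and −0.04, which do not settle it. Of all probe sets, 1 passed an adjusted p of 0.05 and 314 higher and 123 lower met the thresholds of the methods. With 1 array left out these counts were 0 (lowest and highest both 0), 369 to 470 (the highest without WT replicate 1) and 158 to 277 (the highest without WT replicate 2). With a pseudocount of 1 they were 0, 500 and 257, with a pseudocount of 64 they were 43, 44 and 14, above the median signal they were 109, 30 and 18, and with a trended and robust variance 145 passed the adjusted p. With the arrays centred on their medians 252 were higher and 184 lower, and with quantile normalization 254 and 184. The count of cyclin genes was repeated after seeing the data and was between 3 and 5 in every alternative.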
